A study of Mus musculus with 27 samples.

Results

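Glutathione peroxidases and peroxiredoxins are enzymes that reduce hydrogen peroxide and lipid peroxides in animal cells. Many glutathione peroxidases take electrons from glutathione, and the family carries selenocysteine or cysteine at the active site. Peroxiredoxins use a reactive cysteine that is mostly restored by thioredoxin. In the heart, where mitochondria release reactive oxygen species, both families are known for limiting oxidative damage when oxygen returns after a period of hypoxia. The set described here comprised 10 of the 22367 protein-coding genes of the annotation: *Gpx1*, *Gpx3*, *Gpx4*, *Gpx7*, *Gpx8*, *Prdx1*, *Prdx2*, *Prdx3*, *Prdx5* and *Prdx6*. For each gene, every region of histone H3 lysine 4 (H3K4) methylation in the gene body or within 5 kb of an annotated transcription start site (TSS) was assigned to it, which gave 27 of 358833 merged regions. The genes were chosen on a reading of the same region lists that are described here. Their values are therefore given as a description with no test.

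To determine where H3K4 methylation falls when the methyltransferase gene *Kmt2d* is deleted in heart muscle, the study performed chromatin immunoprecipitation and sequencing (ChIP-Seq) on E11.5 (embryonic day) mouse hearts, with an antibody to each of the marks H3K4me1, H3K4me2 and H3K4me3. H3K4me1 lies mainly at enhancers, H3K4me2 at enhancers and promoters, and H3K4me3 at promoters. Control hearts were *Tnnt2::Cre;Kmt2d fl/+;mTmG/+* and mutant hearts *Tnnt2::Cre;Kmt2d fl/fl;mTmG/+*, all on the C57BL/6 strain as labelled, so that both genotypes carried the Cre transgene, the mTmG fluorescent reporter and at least 1 floxed *Kmt2d* allele. Of the 27 libraries, 24 came from hearts, with 3 replicates of each mark and of input per genotype, each replicate from a pool of 30 hearts. The *Tnnt2* promoter drives Cre in cardiomyocytes only, whereas whole hearts were used, so chromatin of endothelial, epicardial and blood cells, in which this Cre does not act, was also present. A loss in 1 cell type and a smaller share of that cell type cannot be told apart in such pools. The deposited values are 3 lists of regions: all regions merged over the marks, those with lower H3K4me1 and those with lower H3K4me2 in mutant hearts, as called by the authors. The lists hold positions only. No read count, fold change or replicate value stands behind any region below, so neither the size of a decrease nor its spread between replicates could be given, and the depth is unknown.

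The main TSS of each gene was the start shared by the most protein-coding transcripts, or the most 5′ of tied starts. It lay in a merged region for all 10 genes, beside 67.1% of all coding genes. The choice of members may fix that count, since the family genes left out of the set lack such a region. Of the members, 3 had a region in the H3K4me2-decreased list: *Gpx1*, *Prdx2* and *Prdx6*. Each had 1, and in each it was the region over the main TSS. This count of 3 of 10 (30.0%) stood beside 28.7% of the 20025 coding genes that had a merged region, and beside 28.6% for the region over the main TSS, so the 10 genes were called about as often as coding genes in general. No member had a region in the H3K4me1-decreased list, beside 7.08% of the same coding genes and 0.646% for the region over the main TSS. Over all merged regions, 1.87% were in the H3K4me2-decreased list and 0.761% in the H3K4me1-decreased list. The map of regions around each TSS shows that the 3 called regions are wide and central, and that the remaining 24 regions of the members are in neither list.

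**Figure D1:**
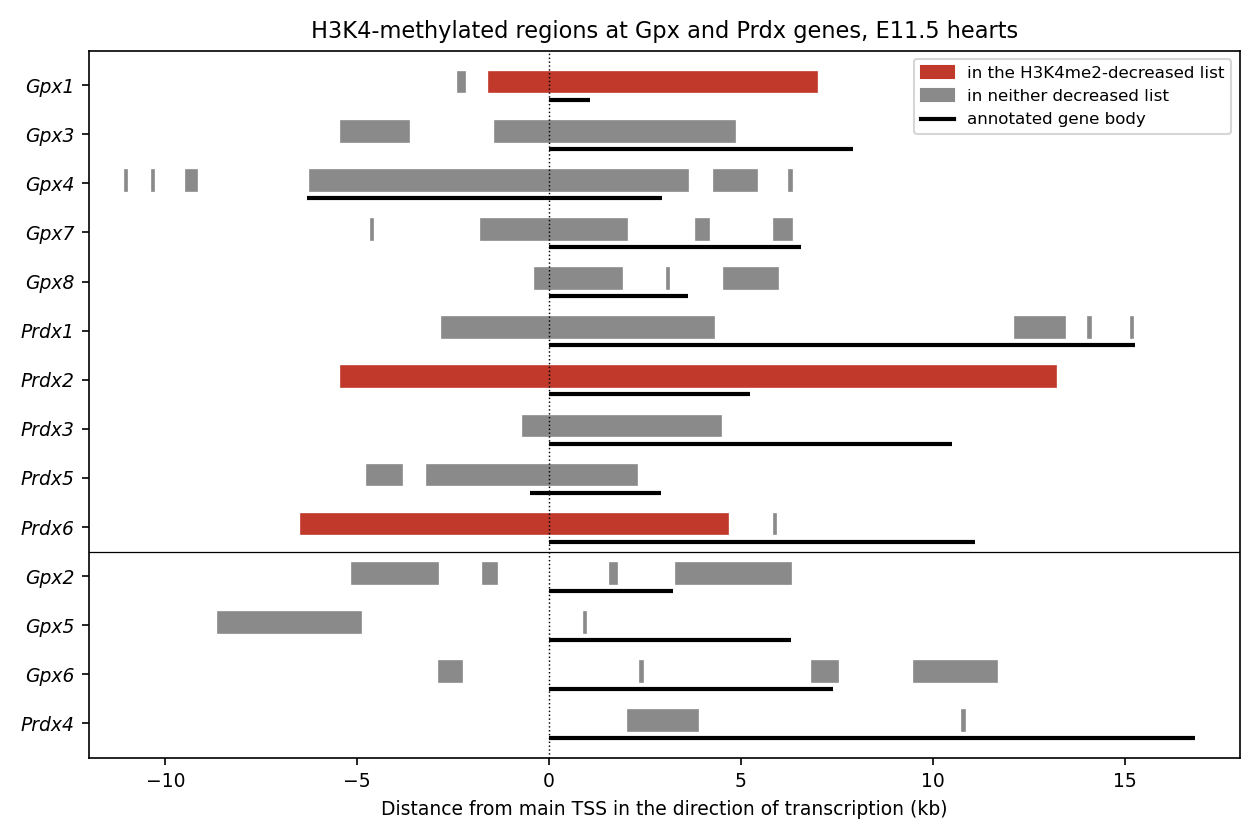
Merged H3K4-methylated regions (boxes) by distance in kb from the main TSS (dotted line), oriented in the direction of transcription, for the 10 members and, under the horizontal line, 4 other family genes. Red boxes are in the H3K4me2-decreased list, grey boxes in neither list, and black bars are gene bodies; the red boxes at *Gpx1*, *Prdx2* and *Prdx6* all lie over the main TSS.

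The promoters of the 3 genes with decreased H3K4me2, and that of *Gpx4*, whose TSS region was about as wide as that of *Gpx1* but was in neither list, are shown because the called regions all covered them. Each runs 5′ to 3′ on the transcribed strand from 250 bases before the main TSS through the first 30 transcribed bases, in assembly NCBIM37 (mm9). Capitals mark matches to any of 4 motifs on either strand: TGACNNNGC (core of the antioxidant response element, bound by NRF2), GGGCGG (GC box), CCAAT (bound by NF-Y) and ACGTG (core of the hypoxia response element). The *Gpx1* sequence is chr9:108241357-108241636 (plus strand), *Prdx2* chr8:87493236-87493515 (plus), *Prdx6* chr1:163181321-163181600 (minus) and *Gpx4* chr10:79515983-79516262 (plus).
Gpx1: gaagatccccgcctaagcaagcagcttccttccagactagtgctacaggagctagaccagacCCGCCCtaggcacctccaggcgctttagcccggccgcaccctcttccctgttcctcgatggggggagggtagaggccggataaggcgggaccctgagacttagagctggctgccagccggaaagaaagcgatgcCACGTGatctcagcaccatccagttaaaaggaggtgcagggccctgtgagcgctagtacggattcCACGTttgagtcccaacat
Prdx2: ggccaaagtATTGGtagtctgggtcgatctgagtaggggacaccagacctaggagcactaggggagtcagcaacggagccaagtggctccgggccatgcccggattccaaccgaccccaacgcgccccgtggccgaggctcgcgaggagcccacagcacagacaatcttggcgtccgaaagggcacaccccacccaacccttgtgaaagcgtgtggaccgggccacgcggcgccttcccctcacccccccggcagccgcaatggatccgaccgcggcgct
Prdx6: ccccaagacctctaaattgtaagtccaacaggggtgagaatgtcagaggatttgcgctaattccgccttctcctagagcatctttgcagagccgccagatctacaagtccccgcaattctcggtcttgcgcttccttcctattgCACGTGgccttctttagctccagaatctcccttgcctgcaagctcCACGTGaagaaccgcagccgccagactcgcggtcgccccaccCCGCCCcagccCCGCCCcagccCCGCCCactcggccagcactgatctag
Gpx4: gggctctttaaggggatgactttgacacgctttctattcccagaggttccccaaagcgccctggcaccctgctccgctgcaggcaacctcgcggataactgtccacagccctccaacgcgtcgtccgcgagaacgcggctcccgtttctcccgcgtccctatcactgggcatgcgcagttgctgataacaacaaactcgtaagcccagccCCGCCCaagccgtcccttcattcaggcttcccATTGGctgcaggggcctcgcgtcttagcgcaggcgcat

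The motifs were counted in the full window of 250 bases before to 50 after the main TSS. *Gpx1* held 1 GC box and 3 matches to ACGTG, a pair of which overlap as the palindrome CACGTG from 54 to 49 bases before the TSS. *Prdx6* held 4 GC boxes and 4 matches to ACGTG, which form 2 copies of the same palindrome, from 106 to 101 and from 61 to 56 bases before the TSS. Among the members the palindrome was in these 2 promoters only. It was looked for after the matches were seen, and was present in 7.69% of all coding promoters. The share was 9.49% of those with a merged region over the TSS and 10.3% of those whose TSS lay in an H3K4me2-decreased region. *Prdx2* held neither ACGTG nor TGACNNNGC, and *Gpx4* held 2 CCAAT boxes and 1 GC box.

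Over the 10 members, ACGTG occurred in 5 promoters (*Gpx1*, *Gpx3*, *Gpx8*, *Prdx5* and *Prdx6*). This stood beside 20.6% of the promoters of all coding genes and 24.5% of those with a merged region over the TSS. GC boxes occurred in 7, beside 43.9% of all coding promoters and 61.8% of those with a merged region over the TSS. CCAAT occurred in 3 (*Gpx4*, *Gpx7* and *Prdx2*), beside 37.8%. TGACNNNGC occurred in 1, that of *Prdx1*, on the minus strand from 78 to 70 bases before the TSS, beside 12.5%. In the 1000 bases before to 100 after the TSS it occurred in 4 members, beside 32.9% of coding genes. These are matches of letters and show no binding.

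The catalytic codons of the glutathione peroxidases are shown with 12 bases on each side and the codon in capitals, because they separate the selenoproteins from the cysteine enzymes and show how far into each gene the methylated region reached. TGA, otherwise a stop codon, is read as selenocysteine in *Gpx1*, *Gpx3* and *Gpx4*, as the annotation marks. The codon is TGT in *Gpx7* and TGC in *Gpx8*, both for cysteine.
Gpx1: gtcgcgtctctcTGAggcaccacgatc
Gpx3: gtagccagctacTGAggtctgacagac
Gpx4: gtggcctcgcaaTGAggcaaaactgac
Gpx7: gtagctagcgaaTGTggcttcacagac
Gpx8: gtggctagtgacTGCcgcttcacagac

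The sequences lie at chr9:108241770-108241796 (plus strand), chr11:54720746-54720772 (plus), chr10:79517470-79517496 (plus), chr4:108076023-108076049 (minus) and chr13:113835857-113835883 (minus), in that order. The *Gpx1* codon starts 175 bp after the main TSS, inside the H3K4me2-decreased region. Those of *Gpx8*, *Gpx4* and *Gpx3* start 725, 1249 and 4803 bp after the TSS and lie in merged regions that are in neither list. The *Gpx7* codon, 3529 bp after the TSS, lies in no merged region. Of the 3 selenoprotein genes 1 was called, and of the cysteine glutathione peroxidase genes none. The TSS region was called in 28.6% of coding genes that had one. At the widths of *Gpx1*, *Gpx3* and *Gpx4* the share was 40.2%, 37.2% and 39.8%, and at those of *Gpx7* and *Gpx8* 30.6% and 21.0%. Beside these shares, the counts set neither type apart.

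*Gpx1* encodes the abundant selenoenzyme that reduces hydrogen peroxide in cytosol and mitochondria. The gene spans chromosome 9, 108241607 to 108242671 on the plus strand, a length of 1065 bp, and had 2 regions. The H3K4me2-decreased region was 8540 bp wide (108240046 to 108248585), from 1561 bp before the TSS to 6978 bp after it. It held the whole gene, with 847 bp of exon, of which 244 bp were untranslated, and went on for 5914 bp past the gene's end. It also overlapped the annotated body of *Rhoa*, which encodes a small GTPase of the cytoskeleton, but held the TSS of no other coding gene. The other region, 180 bp wide and 2381 to 2202 bp before the TSS, was in neither list.

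*Gpx4* encodes the enzyme that reduces phospholipid peroxides in membranes and protects cells from ferroptosis. It had 6 regions, more than any other member, and the region over its main TSS was 9860 bp wide (chromosome 10, 79510006 to 79519865), wider than that of *Gpx1*, yet it was in neither list. That region reached 6227 bp before the main TSS and 3632 bp after it, and covered 99.0% of the annotated gene body. It held 5 of the 6 annotated TSS positions of the gene. The remaining 5 regions of *Gpx4* were 60 to 1120 bp wide. *Gpx3* encodes the glutathione peroxidase that is secreted into plasma. Its TSS region of 6260 bp (chromosome 11, 54714546 to 54720805) covered 61.2% of the gene, and a second region of 1780 bp lay 5429 to 3650 bp before the TSS. Neither was in a list.

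*Gpx7* and *Gpx8* encode the glutathione peroxidases of the endoplasmic reticulum, which use cysteine. They had the narrowest TSS regions of the 10 members, 3800 bp at *Gpx7* (chromosome 4, 108077546 to 108081345) and 2260 bp at *Gpx8* (chromosome 13, 113834706 to 113836965). The *Gpx7* region reached 1779 bp before and 2020 bp after the TSS. The *Gpx8* region reached 369 bp before it, less than at any other member, and 1890 bp after it. *Gpx7* had 3 further regions of 60 to 480 bp, and *Gpx8* had 2, of 60 and 1400 bp. None was in a list.

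*Prdx1* and *Prdx2* encode the abundant peroxiredoxins of the cytosol, and *Prdx3* that of mitochondria. All use a pair of cysteines and are restored by thioredoxin. *Prdx2* had 1 region, and at 18640 bp (chromosome 8, 87488066 to 87506705) it was the widest over a TSS in the set. It was in the H3K4me2-decreased list and contained the whole gene (87493486 to 87498733), from 5420 bp before the main TSS to 13219 bp after it. The same region held the TSS of *Junb*, a transcription factor gene of the AP-1 group, and of *Rnaseh2a*, which encodes a ribonuclease H2 subunit. The decrease was therefore called once for 3 promoters and cannot be assigned to any of them. At *Prdx1* the TSS region was 7100 bp wide (chromosome 4, 116355346 to 116362445), and 3 more regions of 60 to 1300 bp lay in the gene body, 12137 bp or more after the TSS. The lone region at *Prdx3* was 5160 bp wide (chromosome 19, 60945986 to 60951145), with 686 bp before the TSS and 4473 bp after it. No region of *Prdx1* or *Prdx3* was in a list.

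*Prdx5* encodes a peroxiredoxin found in mitochondria, peroxisomes and cytosol. Its TSS region of 5460 bp (chromosome 19, 6981826 to 6987285) also held the TSS of *Trmt112*, which encodes a cofactor of methyltransferases, and a region of 920 bp lay 4758 to 3839 bp before its TSS. Both were in neither list. *Prdx6* encodes the peroxiredoxin that works with a lone catalytic cysteine and glutathione and also acts on phospholipids. Its TSS region was 11140 bp wide (chromosome 1, 163176686 to 163187825) and was in the H3K4me2-decreased list. It reached 6475 bp before the TSS and 4664 bp after it, covered the first 42.0% of the gene body and held no TSS of another coding gene. A 60 bp intronic region of *Prdx6*, 5865 to 5924 bp after the TSS, was in neither list.

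The 17 member regions that did not hold a main TSS belonged to 8 genes. They were 60 to 1780 bp wide (median 180 bp), and 8 of the 27 regions, of which 6 were 60 bp wide, the narrowest in the merged list, were under 100 bp. None of the 17 was in either list. Since the assignment rule has a threshold of 5 kb, the farthest region inside it was a 60 bp region 4666 bp from a TSS of *Gpx4*, and the nearest outside it was a 1560 bp region 5170 bp from a TSS of *Prdx5*. Both were in neither list.

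The 3 called regions were among the 4 widest TSS regions of the set. In order of width these were *Prdx2* (18640 bp), *Prdx6* (11140 bp), *Gpx4* (9860 bp) and *Gpx1* (8540 bp), followed by *Prdx1*, *Gpx3*, *Prdx5*, *Prdx3*, *Gpx7* and *Gpx8*. The members' TSS regions were wide for coding genes, with a median of 6680 bp beside 3640 bp (quartiles 2360 and 5660 bp) over all coding genes with one. Of the 10, 9 exceeded that median and 6 exceeded the upper quartile. The members had fewer regions, with a median of 2 beside 4 per coding gene, but more covered sequence, with a median of 8290 bp beside 5640 bp. These 2 comparisons were with all 22367 coding genes, including those with no merged region. Every member had a TSS region, which the choice of members may fix, so the sets are unlike. The plot of region widths shows where each member lies in the distribution of all coding-gene TSS regions.

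**Figure D2:**
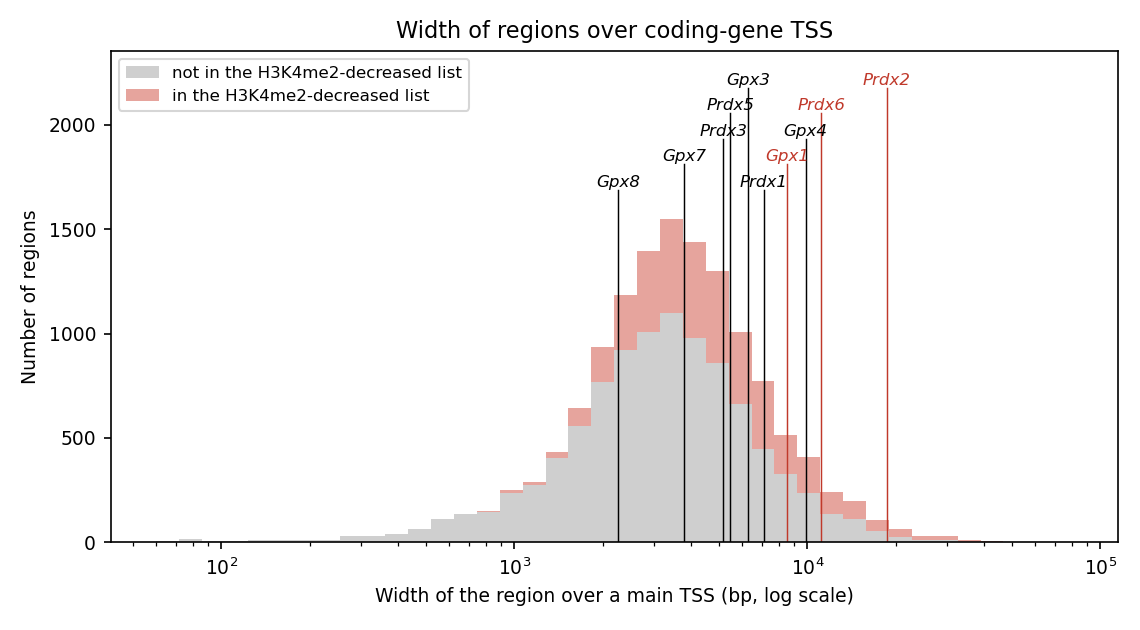
Histogram of the width in bp (log scale) of merged regions over a coding-gene main TSS, stacked by whether the region is in the H3K4me2-decreased list (pink) or not (grey). Vertical lines mark the 10 members, red for the 3 in the list; all but *Gpx8* (2260 bp) lie above the coding-gene median of 3640 bp.

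Width and list membership moved together over all coding genes. Of the regions over a coding main TSS, 26.4% were in the H3K4me2-decreased list at 2000 to 4000 bp, 33.4% at 4000 to 6000 bp, 39.1% at 6000 to 8000 bp and also at 8000 to 10000 bp, 42.1% at 10000 to 15000 bp and 56.9% from 15000 bp up. The 6 members under 8000 bp were all in neither list. In the class of 8000 to 10000 bp *Gpx1* was called and *Gpx4* was not, and the members of the 2 widest classes, *Prdx6* and *Prdx2*, were called. Among the 1374 TSS regions of 6832 to 10675 bp, that is of like width to that of *Gpx1*, 553 were called, or 40.2% (95% Wilson interval 37.7% to 42.9%, which covers counting error only). The same share was 39.8% (36.8% to 42.8%) for *Gpx4*, 42.3% (38.9% to 45.8%) for *Prdx6* and 52.1% (45.8% to 58.4%) for *Prdx2*. Among the other 6 members, none of them called, it fell from 38.6% at the width of *Prdx1* to 21.0% at that of *Gpx8*. The part of width in these calls was not tested.

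**Figure D3:**
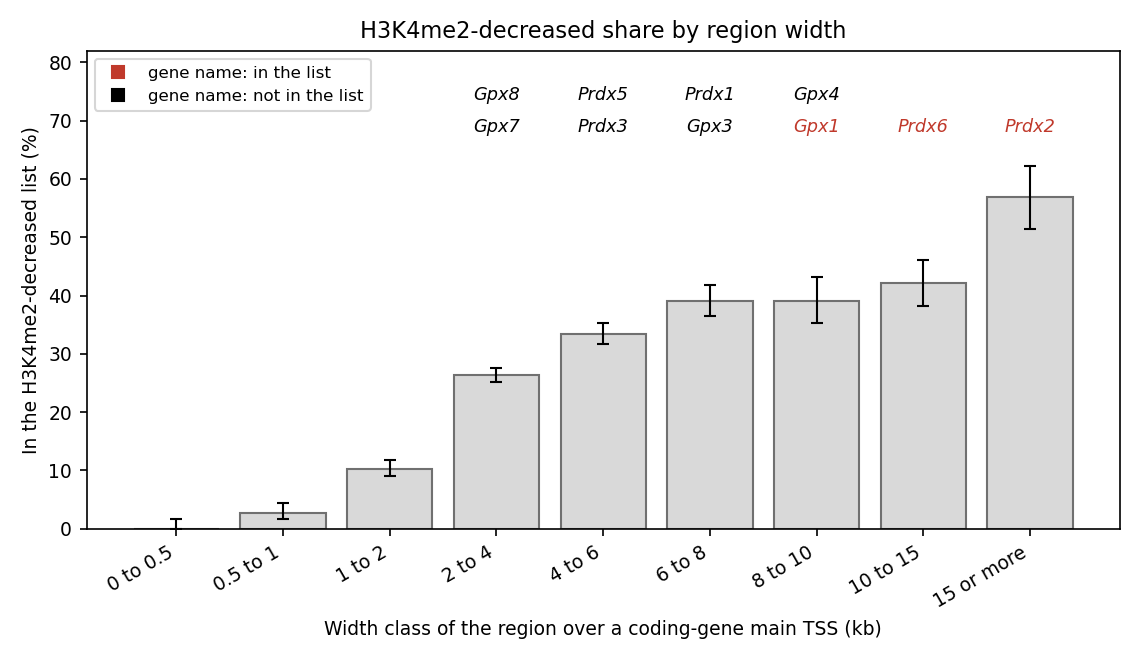
Share (%) of merged regions over a coding-gene main TSS that are in the H3K4me2-decreased list, by width class in kb, with 95% Wilson intervals as error bars. The members' names stand over their class, in red where the region is in the list; the share rises from 26.4% in the class of *Gpx7* and *Gpx8* to 56.9% in that of *Prdx2*.

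Regions that hold several promoters were also called more often. Regions over a coding main TSS were grouped by the number of coding genes with any annotated TSS inside. Those with 1 such gene were in the H3K4me2-decreased list in 26.0% of cases (median width 3320 bp). The share was 36.5% with 2 (4780 bp) and 48.5% with 3 or more (9300 bp). *Prdx2*, with 3, fell in the last group, and *Prdx5*, with 2, in the middle one. The other 8 members, *Gpx1* and *Prdx6* included, had a TSS region of their own. Leaving out regions shared with another coding TSS, an alternative added after the data were seen, left 2 called members.

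The region over *Gpx1* extended mostly after the TSS, as did those of *Gpx3*, *Gpx7*, *Gpx8*, *Prdx1*, *Prdx2* and *Prdx3*. It reached 6978 bp after the TSS, the 93.0 percentile of coding genes, but 1561 bp before it, the 63.3 percentile. *Gpx3*, in neither list, had nearly the same reach before the TSS (1409 bp) and less after it (4850 bp). *Gpx4*, *Prdx5* and *Prdx6* reached further before the TSS. *Gpx4* and *Prdx6* had 6227 and 6475 bp before the TSS and 3632 and 4664 bp after it, and *Prdx6* was called while *Gpx4* was not. Of the 10 members, 7 reached further after the TSS than before it, beside 74.0% of coding genes. At a length of 1065 bp, *Gpx1* was covered whole, as was *Prdx2*, whereas the TSS regions of *Prdx6* and *Prdx3* covered 42.0% and 42.6% of the gene body. The plot of reach before and after the TSS sets the 10 genes side by side.

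**Figure D4:**
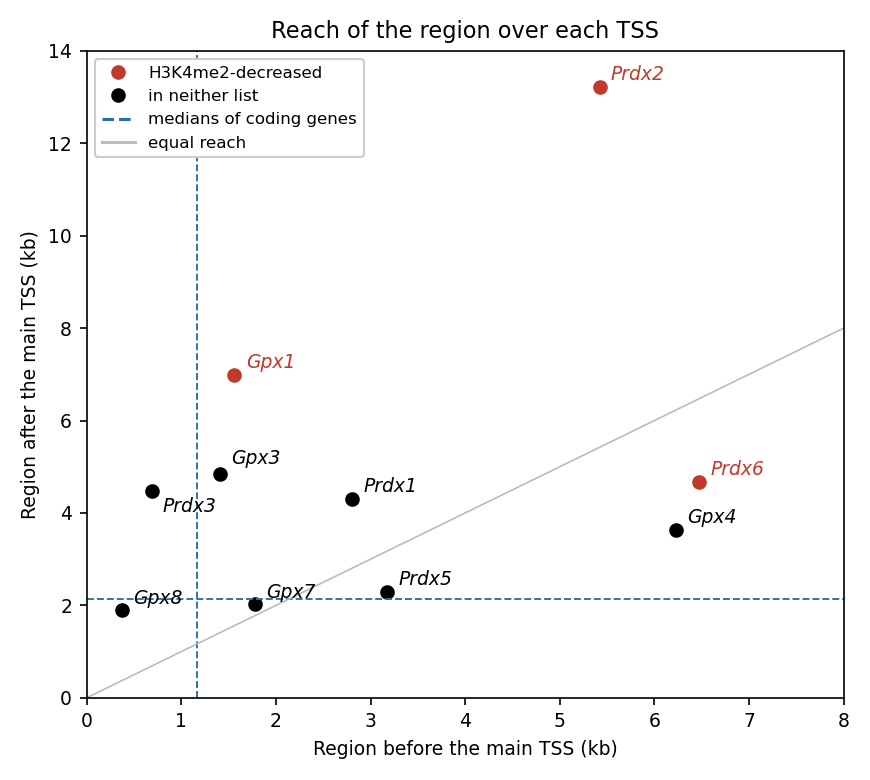
Length in kb of the region over the main TSS before (horizontal axis) and after (vertical axis) the TSS for the 10 members, red where the region is in the H3K4me2-decreased list. Dashed lines are the coding-gene medians (1171 bp before and 2148 bp after) and the grey line is equal reach; *Gpx1* and *Prdx2* extend mostly after the TSS, whereas *Prdx6* and *Gpx4* extend mostly before it.

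The coding genes whose H3K4me2-decreased TSS region was most like that of *Gpx1* in reach before and after the TSS were, of 4289 compared by Euclidean distance of log2 lengths, *Flrt2* (distance 0.010), *Srsf11* (0.024), *Rbbp6* (0.088), *Baz1b* (0.089) and *Pou2f1* (0.090). Their regions were 8140 to 8560 bp wide.

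The members' promoters differed in base composition. Among coding genes with a merged region over the TSS, the median promoter GC content was 60.3% (quartiles 54.0% and 67.0%) and the median ratio of observed to expected CpG was 0.728 (0.500 and 0.892). *Gpx1* (59.3%), *Gpx4* (60.3%), *Prdx6* (60.7%) and *Prdx1* (61.0%) lay near the median GC content, *Prdx2* (67.7%) was highest and *Gpx3* (43.7%), *Gpx8* (45.3%) and *Gpx7* (48.3%) were below the lower quartile. The CpG ratio of the *Gpx1* promoter was 0.531, under that of *Gpx4* (0.913), *Prdx2* (0.796) and *Prdx6* (0.750). The called promoters thus spanned 59.3% to 67.7% GC and those in neither list 43.7% to 65.3%. These ranges overlap.

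Around 2 of the 3 called members the next H3K4me2-decreased region lay close by. After *Gpx1*, a 3620 bp region of the list that held the TSS of *Usp4*, a deubiquitinase gene, began 660 bp from the end of the *Gpx1* region (chromosome 9, 108249246 to 108252865). On the other side a 60 bp region of the list lay in *Rhoa*, 17342 bp from the *Gpx1* TSS, and a 9320 bp region of the list over the TSS of *Rhoa* and *Tcta* lay 26042 bp from it. After *Prdx2* a 3480 bp region that held no coding TSS began 860 bp away (chromosome 8, 87507566 to 87511045). At *Prdx6* the nearest was 100 bp wide and 16220 bp away. Of the 3685 H3K4me2-decreased regions over a coding main TSS, 38 (1.03%) had another region of that list within 1 kb, and the median gap over the 3685 was 66900 bp. These gaps were measured after the positions had been seen and are given without a test. Since merged regions lie at least 620 bp apart, neighbours at 660 and 860 bp were separated by little more than the smallest gap in the list.

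Decreased regions outside the 5 kb rule were found within 30 kb of other members too. An 8760 bp H3K4me2-decreased region over the TSS of *Grk5*, a receptor kinase gene, lay 12787 bp from the TSS of *Prdx3*, and a 2860 bp one over *Mmachc* and *Ccdc163* lay 19949 bp from a TSS of *Prdx1*. A 100 bp region 14344 bp from a TSS of *Prdx1* was in both lists, 1 of 172 such regions in all. Beyond *Gpx3*, 2 H3K4me1-decreased regions of 2140 and 2120 bp lay in *Tnip1*. Which gene such regions act on cannot be read from the lists.

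The 4 family genes outside the set, *Gpx2*, *Gpx5*, *Gpx6* and *Prdx4*, had no merged region over the main TSS and none in a decreased list. *Gpx2* encodes the glutathione peroxidase of the gut lining, *Gpx5* that of the epididymis and *Prdx4* the peroxiredoxin of the secretory pathway. Each had 2 to 4 merged regions by the same rule. At *Prdx4* a region of 1820 bp lay over 2 other annotated TSS, 2052 to 3871 bp into the gene. Of the near copies annotated with family names, *Prdx6b* had no merged region and *Gpx2-ps1*, *Prdx2-rs3* and *Prdx6-ps2* had 1 to 3, with none decreased. Reads that match both a gene and a copy cannot be told apart by position, and how they were treated is not given in the sources used here.

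The enzymes that supply the 2 families with electrons were described within a list of 30 genes. It also held superoxide dismutases and catalase, regulators and their targets, and genes for selenoprotein synthesis. It too was drawn up with earlier results known. All 30 had the main TSS in a merged region. Of these, 18 had an H3K4me2-decreased region, beside 28.7% of coding genes, and in 17 it lay over the main TSS (56.7%, beside 28.6%). Their median TSS region was 5080 bp wide, in a width class where 33.4% of coding TSS regions were called. One gene had an H3K4me1-decreased region, beside 7.08%.

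In the thioredoxin and glutathione system 9 of 16 were called, each over the TSS, beside 28.6% of coding genes with a TSS region. Among them were *Txn1* (5160 bp) and *Txn2* (3580 bp), the thioredoxins of cytosol and mitochondria that restore peroxiredoxins, and all 3 thioredoxin reductases, *Txnrd1* (5040 bp), *Txnrd2* (8920 bp) and *Txnrd3* (3260 bp). *Gclc* (5120 bp) and *Gclm* (12100 bp), the subunits of the enzyme that limits glutathione synthesis, *Gss* (8740 bp), which completes it, and *Glrx3* (2720 bp), a glutaredoxin, were the others. *Gclc* had a second called region of 3860 bp before its TSS. The 7 that were not called were *Txnip*, *Srxn1*, *Glrx*, *Glrx2*, *Glrx5*, *Gsr* and *G6pdx*, and of these *Glrx5* had the widest region, 16920 bp.

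Of the superoxide dismutases and catalase, *Sod1* (6380 bp) and *Cat* (7400 bp) were called and *Sod2* and *Sod3* were not. Of the regulators and their targets, 4 of 6 were called: *Nfe2l2* (13120 bp), which encodes NRF2, *Hmox1* (1500 bp), which encodes heme oxygenase, and *Sesn1* (6740 bp) over the TSS, and *Sesn2* in a 2680 bp region before it. *Keap1* and *Nqo1* were not. Of the genes for selenoprotein synthesis, *Secisbp2* (9460 bp), *Sephs2* (3720 bp) and *Sepsecs* (2120 bp) were called over the TSS. *Eefsec*, the elongation factor for selenocysteine, had a 2260 bp H3K4me1-decreased region 4868 to 7127 bp after its TSS. The H3K4me2 counts of these small groups stand beside 28.7% of coding genes with a merged region. The groups were chosen with results known and were not tested.

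The tissue was checked by whether the main TSS of marker genes lay in a merged region. This held for 8 of 8 cardiomyocyte markers, whose TSS regions had a median width of 16610 bp, for 3 of 4 endothelial markers (not *Pecam1*), and for all 3 epicardial, 3 cushion and fibroblast, and 3 erythroid markers. Of the genes that are not of the heart, *Neurod1* had a TSS region of 580 bp, and *Alb*, *Afp* and *Ins1* had none over the main TSS. Of the cardiomyocyte markers 4 of 8 had an H3K4me2-decreased TSS region, of the erythroid markers 2 of 3, of the cushion and fibroblast markers 1 of 3 (*Twist1*, 8860 bp), and of the endothelial and epicardial markers none. These counts stand beside 28.6% of coding genes with a TSS region, and beside 56.9% for regions of 15000 bp or more, a class that holds the median width of the cardiomyocyte markers. By the 5 kb rule, 2 of 8 cardiomyocyte and 1 of 4 endothelial markers had an H3K4me1-decreased region, and the other marker groups none. This stood beside 7.08% of coding genes with a merged region, and no such marker region lay over the main TSS. The part of cell composition in the members' calls was not tested.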

How the data were processed

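E11.5 control and mutant hearts were profiled by ChIP-Seq for H3K4me1, H3K4me2 and H3K4me3. Groups were taken from the sample labels. Per the labels, the authors' processing notes named CASAVA (1.8.2), FastQC, Bowtie, Bowtie2 and SAMtools, on mm9. The authors merged peaks over replicates and marks into 1 list and deposited it with a list of regions with decreased H3K4me1 and one with decreased H3K4me2, each called under a limit on false discoveries. The H3K4me2 list, and with it the regions found in both lists, was used as deposited; it is longer than the list described in the study's text, and the reason is not given in the sources used here. Each deposited list holds region coordinates only, and the depth per library and the peak caller were not given in the sources used here. A region is called only where enough reads of the mark were found, so a region in neither list may still have changed.

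All 3 lists were read with Python 3.11.15 (NumPy 2.4.6, SciPy 1.17.1). Region ends lay inside the chromosomes of NCBIM37, widths were multiples of 20 bp and every decreased region was identical to a merged region. Coordinates are 1-based. Genes and TSS were those of GENCODE vM1, in which promoters and codons were located and then read from NCBIM37. The window was the gene body plus 5 kb around each TSS. Interval code was tested on simulated data. KMT2D ChIP-Exo and H3K4me3 changes were not analysed here. A gene of the list of genes that are not of the heart is not reported here.

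Members and gene lists were chosen with earlier results of these data known, so no test was run. Named genes were all members, the other 4 family genes, list genes with a decreased region, genes sharing a TSS region with a member, and the 5 genes most like *Gpx1* in region reach. Names outside this rule (neighbouring genes, near copies, list genes that were not called, and tissue markers) were given after their values were seen. Alternatives were other windows, TSS definitions, overlaps, width minimums and width classes.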

Additional observations from a re-analysis of the deposited data

How the results depend on the processing

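Over 50 alternatives to 12 results, 37 left the value unchanged by the limits used (a factor of 1.5 for counts) and 13 moved it. The counts of 3 members with an H3K4me2-decreased region and 0 with an H3K4me1-decreased region, and of 10 with the main TSS in a merged region, were within that limit under each alternative run for them. The count of 3 fell to 2, at the limit itself, when regions shared with another coding TSS were left out. The count of 10 fell to 9 with the most 5′ annotated TSS. Some alternatives, counted among the 37, could not have moved a count and show nothing about its stability. For the counts of 3 and 0 these included the overlap rules (at least 1 bp or 50%), since the decreased lists reuse merged regions with unaltered ends. A window of 1 kb, gene body only, coding TSS only, a 500 bp minimum and leaving out shared regions can only remove regions. The count of 0 could therefore be moved by the 10 kb window only. The called regions lay over the main TSS and were 8540 bp or wider. The count of 3 could thus be moved only by the 10 kb window or by leaving out shared regions. For the count of 10 the alternatives that could not move it were any annotated TSS and a region within 500 bp of the main TSS, since both contain the main rule. The number of regions assigned to the members, 27, became 17 with a window of 1 kb, 48 with 10 kb, 17 with the gene body only and 15 with regions of at least 500 bp. *Gpx1* ranked 4 by width of the TSS region and 3 when the most 5′ annotated TSS was used, since that of *Gpx4* lies outside its wide region. No paired analysis was possible because the lists hold no value per replicate, and leaving out replicates could not be run for the same reason. Unknown depth limits every statement: a region in neither list may have changed by an amount too small to be called.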
